A study of Mus musculus with 9 samples.

Results

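The genes described here are 10 genes of theca cells and of the hedgehog pathway, read on 9 Affymetrix mouse arrays of cultured granulosa cells: Cyp17a1, Insl3, Hsd17b3, Ptch1, Gli1, Ihh, Dhh, Nr2f2, Pdgfra and Tcf21. Every probe set whose only annotated symbol is one of these genes was taken, which gave 20 probe sets of 9 genes among the 45037 probe sets tested. Insl3 has none, because the 2 probe sets that name it also name Jak3, so no value is given to it. The cells were taken from mice aged 20 to 26 days that had received equine chorionic gonadotrophin, which makes follicles grow, 48 h earlier, and attached overnight in medium with 1% serum. They were then kept without serum for 24 h with an adenovirus that carries WNT4 (3 arrays), Cre recombinase (3 arrays) or enhanced GFP, the control (3 arrays), at a multiplicity of infection of about 50, at which over 80% of cells took up the GFP virus in trials by the submitters. Cre acts on floxed alleles of Ctnnb1, which encodes beta-catenin. The labels name various genotypes for all groups alike and do not say which cells had which genotype. They call the replicates biological without saying whether these were separate animals or cultures, so the p-values rest on the spread among these samples.

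Hedgehog signalling in the ovary runs from granulosa cells to the cells around the follicle. Granulosa cells of growing follicles make the ligands IHH and DHH; the ligands bind PTCH1, which frees the membrane protein SMO, and GLI transcription factors then switch on targets that include Gli1 and Ptch1 themselves. The responding cells become theca cells, which make androgens through CYP17A1 and secrete the peptide hormone INSL3, while the granulosa cells turn those androgens into oestrogen. NR2F2, TCF21 and PDGFRA mark the stromal cells of the ovary, including theca cells and their precursors.

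The promoters of both ligands and of the receptor are shown because the hedgehog part of these data turns on those genes. They are the 250 bases before the RefSeq start of each gene in build GRCm38.p6, written from 5′ to 3′, with capitals for each GC box, the letters GGGCGG read on either strand.
Ihh (chr1:74951673-74951922, minus strand): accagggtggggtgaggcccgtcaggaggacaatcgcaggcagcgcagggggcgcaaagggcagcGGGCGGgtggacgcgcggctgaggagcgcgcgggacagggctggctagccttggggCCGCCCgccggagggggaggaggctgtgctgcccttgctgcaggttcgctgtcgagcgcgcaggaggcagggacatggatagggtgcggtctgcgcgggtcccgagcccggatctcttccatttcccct
Dhh (chr15:98898541-98898790, minus strand): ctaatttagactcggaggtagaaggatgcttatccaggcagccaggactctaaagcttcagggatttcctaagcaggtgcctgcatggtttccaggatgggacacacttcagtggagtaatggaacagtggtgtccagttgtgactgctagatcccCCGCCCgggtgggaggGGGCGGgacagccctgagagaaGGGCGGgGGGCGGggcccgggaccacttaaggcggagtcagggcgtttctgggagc
Ptch1 (chr13:63565736-63565985, minus strand): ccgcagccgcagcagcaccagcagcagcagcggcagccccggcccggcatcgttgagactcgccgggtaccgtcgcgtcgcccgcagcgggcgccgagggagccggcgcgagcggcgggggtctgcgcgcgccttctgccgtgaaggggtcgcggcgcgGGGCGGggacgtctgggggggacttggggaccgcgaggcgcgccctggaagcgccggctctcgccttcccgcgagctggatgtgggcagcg
The Ihh window holds 2 GC boxes, the Dhh window 4 and the Ptch1 window 1, and 32.7% of all 32851 promoter windows of this length hold at least 1. Windows were found for 8 of the 10 genes (Gli1 and Cyp17a1 have none in the table), and the GLI motif GACCACCC, searched on both strands, was in 0 of the 8 and in 0.703% of all windows. The nuclear receptor motif AGGTCA (14.0% of all windows), the longer AAGGTCA that contains it (4.08%), the E box CAGCTG (13.0%) and the TATA motif TATAAA (12.4%), each searched on both strands, were likewise in 0 of these 8 windows. These arrays measure RNA and not binding, so the matches are descriptions of the sequence.

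Values are log2 RMA values, so a difference of 1 is a 2-fold change. RMA is the method that corrects background, brings arrays to a common distribution and summarises the probes of a set. Such values compare arrays for the same probe set and give no order of level between genes. They hold no zeros and no detection call. A probe set is called dim here when its mean over the 9 arrays is under 6, as it is for 58.6% of all probe sets. Of the 20 probe sets 15 were dim and 5 were not. The 4 genes read from a probe set above that line were Ptch1, Dhh, Nr2f2 and Pdgfra, and the 5 below it were Tcf21, Hsd17b3, Cyp17a1, Ihh and Gli1. Where a gene has several probe sets, the one with the highest mean over all arrays was read. For these 9 genes the others are given beside it. Genes of the further lists are given from that 1 probe set alone. Several of them have others not given here: Igf1 has 4 in all, and Star, Scarb1 and Boc have 3 each.

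The arrays were looked at before the genes. Array medians ran from 5.44 on WNT4 1 to 5.54, and no pair of arrays shared more than 4.53% of exactly equal values. The deposited values did not share one distribution. Their 75th percentile ran from 7.68 on GFP 1 to 8.01 on WNT4 1, and their SD from 2.14 on GFP 2 to 2.36 on WNT4 1. WNT4 1 thus had the widest values, and the part of this in its readings below was not tested. The targeted genes did not settle the labels. Wnt4, on the brighter of its probe sets, averaged 9.34 ± 0.48 on the arrays labelled WNT4, 10.63 ± 0.55 on those labelled Cre and 9.41 ± 0.45 on the GFP arrays (SD, n = 3). On the other it averaged 9.29 ± 0.82 on the WNT4 arrays, 9.62 ± 0.51 on the Cre arrays and 8.32 ± 0.78 on the GFP arrays, a WNT4 minus GFP difference of 0.97 ± 0.49 (SE, limma adjusted p = 0.447). The 3 Ctnnb1 probe sets of the Cre arrays lay 0.04, 0.10 and 0.20 above GFP. Whether these probe sets lie in the viral transcript or in the recombined part of Ctnnb1 is not stated in the labels, so groups are named below as the arrays are labelled. Of 13 granulosa markers measured, 1 (Amh) was dim, and the mean of the list lay between 10.04 and 10.75 on the WNT4 arrays, between 10.09 and 10.60 on the Cre arrays and between 10.51 and 10.79 on the GFP arrays.

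Other programmes moved with the WNT4 group or with single arrays. The median of 12 unfolded protein response genes lay 2.62, 0.53 and 1.62 above the GFP mean on the WNT4 arrays, and at most 0.28 above it on any Cre or GFP array. In WNT4 against GFP all 12 were higher, 11 at an unadjusted p under 0.05 and 0 called. Of all probe sets 9.12% were higher at that threshold and 0.0155% were called. The median difference of the 12 was 1.62, and 1.11 without WNT4 1. These genes too were listed with earlier results of these data known. On WNT4 1 the median of 10 oocyte markers was 1.62 above the GFP mean, and this array had the highest 3′ minus 5′ differences of the beta-actin (1.38) and Gapdh (2.17) control probes, a measure of RNA quality. On WNT4 3 and Cre 3 the median of 13 hypoxia genes was 3.28 and 2.92 above the GFP mean, against at most 0.80 on the other arrays. The part of these programmes in the values below was not tested.

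None of the 20 probe sets differed between any pair of groups by limma's test adjusted over all 45037 probe sets. For WNT4 against GFP 0 of 20 were called (the background is 0.0155% of all probe sets), 1 of 20 passed an unadjusted p under 0.05, a lower one (background 13.0%, with 9.12% higher and 3.91% lower), and the median difference of the 9 genes was 0.03, beside -0.002 for all probe sets. For Cre against GFP 0 of 20 were called (background 0%) and 0 passed the unadjusted threshold (background 2.23%, with 1.01% higher and 1.22% lower), with a median of 0.02 beside -0.02 for all probe sets. For WNT4 against Cre 0 of 20 were called (background 0%) and 1, a lower one, passed the unadjusted threshold (background 6.23%, with 5.07% higher and 1.17% lower), with a median of 0.01 beside 0.02. The smallest limma adjusted p-values were 0.363, 0.9999 and 0.773 in the same order. The split of the background depends on the scaling: of the probe sets with an unadjusted p under 0.05 in WNT4 against GFP, 4109 were higher and 1761 lower as deposited, 2078 higher and 2249 lower after quantile normalization, and 2056 higher and 4765 lower with each array centred on its 75th percentile. The comparisons share arrays, so they are given side by side and not as support for each other.

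**Figure D1:**
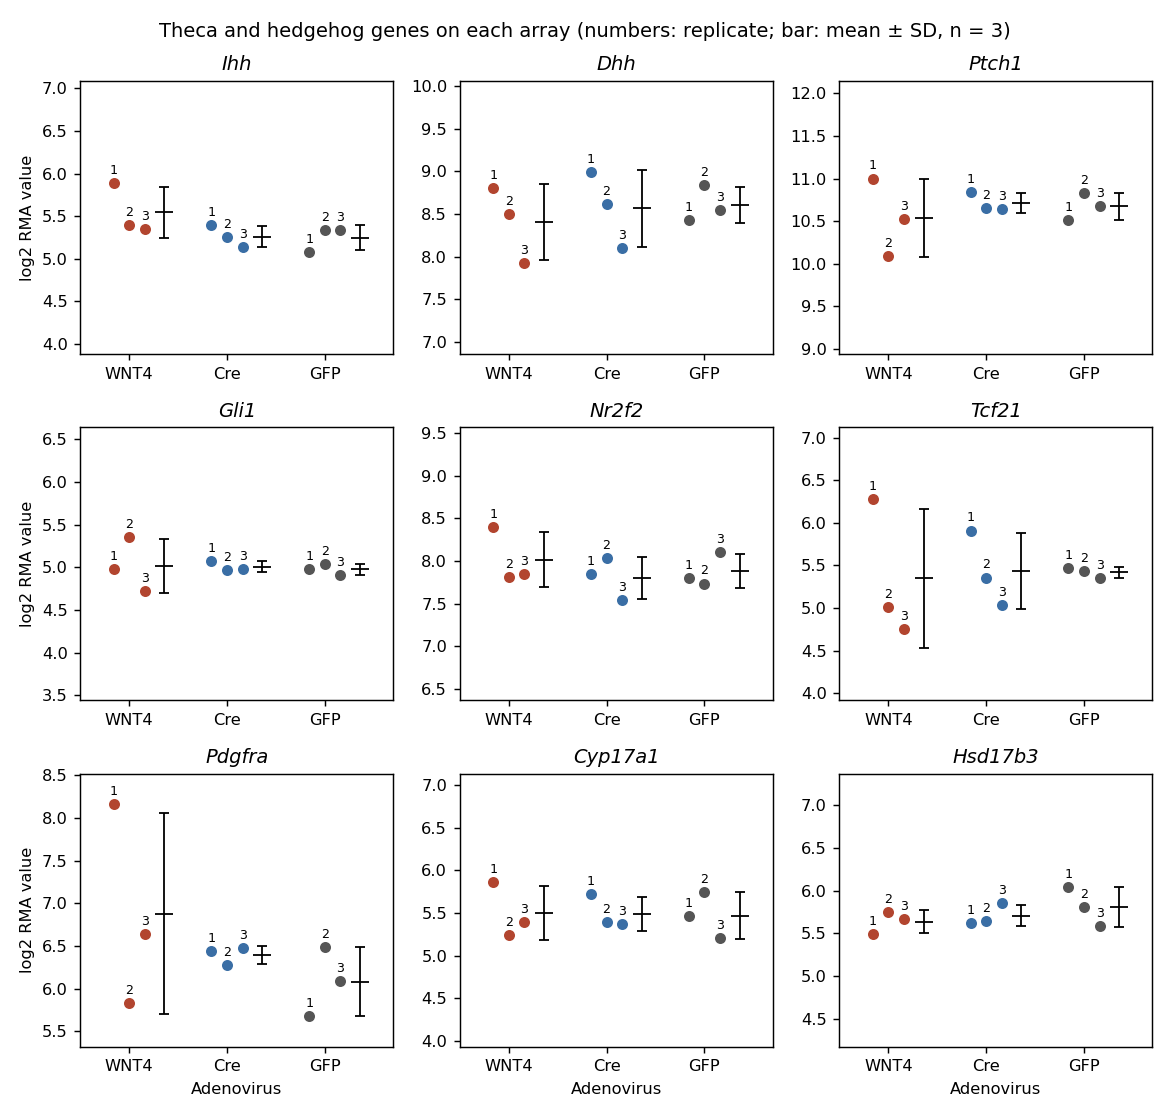
Log2 RMA values (vertical axis, each panel of the same height in log2 units) of the 9 measured genes on the arrays labelled WNT4, Cre and GFP (horizontal axis); each point is an array with its replicate number, and the bar is the mean ± SD of 3 arrays. The WNT4 arrays spread most for Pdgfra, from 5.84 to 8.16, while the groups overlap for every gene but Ihh in WNT4 against GFP.

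The ligands came first. Ihh, Indian hedgehog, read 5.89, 5.39 and 5.35 on the WNT4 arrays, 5.39, 5.26 and 5.14 on the Cre arrays and 5.08, 5.34 and 5.34 on the GFP arrays. All WNT4 arrays lay above all GFP arrays, by 0.01 at the closest pair, and WNT4 1 was the highest of the 9. The difference of WNT4 from GFP was 0.30 ± 0.16 (SE, 95% interval -0.06 to 0.65, limma adjusted p = 0.469). Without WNT4 1 it was 0.12. Cre differed from GFP by 0.01 ± 0.16.

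Dhh, desert hedgehog, read 8.80, 8.51 and 7.92 on the WNT4 arrays, 8.998, 8.62 and 8.10 on the Cre arrays and 8.43, 8.84 and 8.54 on the GFP arrays (1434959_at). The lowest arrays were WNT4 3 and Cre 3, and every other array read at least 8.43. On these arrays the hypoxia genes were high. The median of the granulosa markers was lowest there, at -0.48 on WNT4 3 and -0.39 on Cre 3 relative to the GFP mean. The median of 10 leukocyte genes was highest there, at 0.48 and 0.51, but was also 0.34 on GFP 3, where Dhh read 8.54. The median of 10 oocyte genes was highest on WNT4 1, Cre 1, GFP 2 and Cre 2 (1.62, 0.94, 0.67 and 0.51). Those were the highest arrays for Dhh too, but the lowest oocyte median was on GFP 3 (-0.40). The part of any of these in the Dhh values was not tested. WNT4 differed from GFP by -0.19 ± 0.27 (95% interval -0.81 to 0.42, limma adjusted p = 0.808) and Cre from GFP by -0.03 ± 0.27 (-0.65 to 0.58). Without WNT4 3 and Cre 3, a fit chosen after seeing the data, these differences were 0.05 and 0.20, with signs turned. The dim second probe set, 1422127_at, read 5.86, 5.47 and 5.54 on the WNT4 arrays against 6.11, 5.96 and 5.84 on the GFP arrays. Its difference was -0.34 ± 0.14 (limma adjusted p = 0.363), the lower one counted above, and the groups overlapped.

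The receptor and its target followed. Ptch1, the hedgehog receptor and a target of the pathway, read 11.00, 10.09 and 10.53 on the WNT4 arrays, 10.85, 10.66 and 10.64 on the Cre arrays and 10.52, 10.83 and 10.68 on the GFP arrays (1428853_at). The highest and the lowest of the 9 values were both WNT4 arrays, so the spread within that group (SD 0.46) was wider than any difference between group means. WNT4 differed from GFP by -0.14 ± 0.21 (95% interval -0.61 to 0.33, limma adjusted p = 0.822) and Cre from GFP by 0.04 ± 0.21 (-0.43 to 0.51). Both other Ptch1 probe sets were dim (means 5.30 and 4.87), and their differences of WNT4 from GFP were 0.08 and -0.07.

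Gli1, the transcription factor that most directly reports hedgehog activity, was dim on every array. It read 4.98, 5.35 and 4.73 on the WNT4 arrays, 5.08, 4.97 and 4.98 on the Cre arrays and 4.98, 5.04 and 4.91 on the GFP arrays. The 6 Cre and GFP values lay within 0.17 of each other, and WNT4 2 and WNT4 3 held the highest and the lowest. WNT4 differed from GFP by 0.04 ± 0.15 and Cre from GFP by 0.03 ± 0.15 (limma adjusted p = 0.931 and 0.9999). Ptch1 and Gli1, both targets of the pathway, had a Pearson correlation of -0.43 over the 9 arrays. WNT4 2 was the lowest array for Ptch1 and the highest for Gli1.

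**Figure D2:**
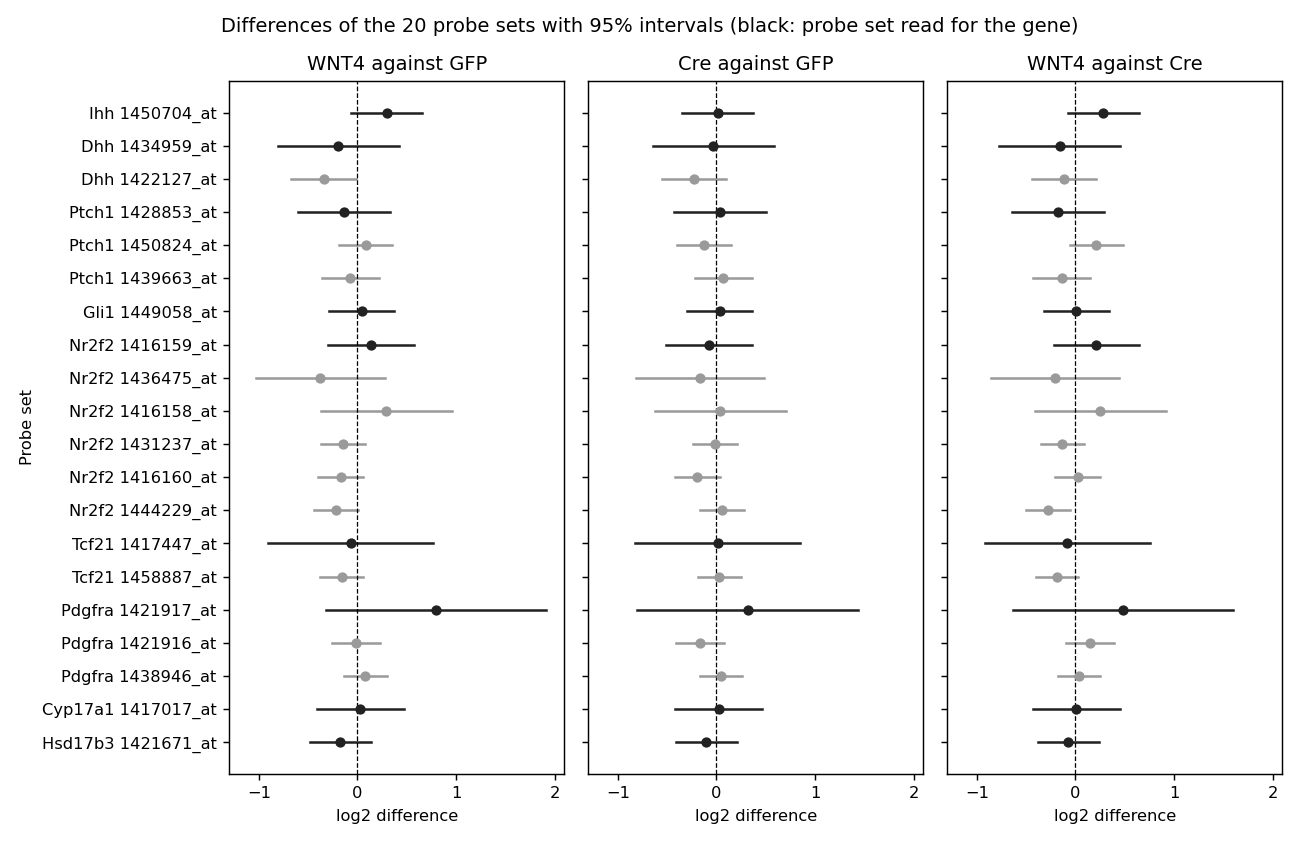
Log2 differences (horizontal axis) of the 20 probe sets (vertical axis) for WNT4 against GFP, Cre against GFP and WNT4 against Cre, with 95% intervals from limma; black marks the probe set read for each gene and grey the others. The widest intervals belong to Pdgfra, which differs by 0.80 in WNT4 against GFP with an interval of -0.32 to 1.91.

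The stromal transcription factors and receptor came next. Over the 9 arrays Pdgfra (SD 0.72) and Tcf21 (0.47) varied more than Dhh (0.35) and Ptch1 (0.26). Nr2f2, on its highest probe set, varied less (0.25). Pdgfra, the receptor for platelet-derived growth factor on stromal cells, read 8.16, 5.84 and 6.64 on the WNT4 arrays, 6.44, 6.28 and 6.47 on the Cre arrays and 5.67, 6.48 and 6.09 on the GFP arrays (1421917_at). WNT4 1 stood 2.08 above the GFP mean, and WNT4 2 lay below all 3 Cre arrays. The mean difference of WNT4 from GFP was 0.80 ± 0.49, or 1.74-fold (95% interval -0.32 to 1.91, limma adjusted p = 0.537), and without WNT4 1 it was 0.15. Against Cre the WNT4 arrays differed by 0.48 ± 0.49, and by -0.16 without WNT4 1, with the sign turned. The other Pdgfra probe sets, 1421916_at and 1438946_at, were dim (means 5.04 and 4.78) and read 5.07 and 4.75 on WNT4 1, within the range of the other arrays.

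Tcf21, a basic helix-loop-helix factor of stromal precursors, read 6.28, 5.01 and 4.76 on the WNT4 arrays, 5.91, 5.36 and 5.03 on the Cre arrays and 5.47, 5.43 and 5.35 on the GFP arrays (1417447_at). The GFP arrays lay within 0.12 of each other (SD 0.06), whereas the WNT4 arrays spread over 1.52 (SD 0.81) and the Cre arrays had an SD of 0.44. Group means were nearly equal, with WNT4 minus GFP at -0.07 ± 0.37 (95% interval -0.91 to 0.77, limma adjusted p = 0.957) and Cre minus GFP at 0.02 ± 0.37. The lowest arrays were WNT4 3, WNT4 2 and Cre 3, and the highest were WNT4 1 and Cre 1. The WNT4 difference was -0.53 without WNT4 1 and 0.23 without WNT4 3. The second Tcf21 probe set, 1458887_at, was dim (mean 4.72) and was lowest, not highest, on WNT4 1.

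Nr2f2, the nuclear receptor COUP-TFII of stromal and theca cells, has 6 probe sets. The highest, 1416159_at, read 8.39, 7.81 and 7.84 on the WNT4 arrays, 7.84, 8.03 and 7.54 on the Cre arrays and 7.80, 7.74 and 8.11 on the GFP arrays. WNT4 1 was again the highest array, and the groups overlapped. WNT4 differed from GFP by 0.13 ± 0.19 (95% interval -0.30 to 0.57, limma adjusted p = 0.812) and Cre from GFP by -0.08 ± 0.19. The next probe set, 1436475_at, read 7.27, 5.98 and 6.35 on the WNT4 arrays against 6.78, 6.83 and 7.11 on the GFP arrays, a difference of -0.38 ± 0.29 with the opposite sign. On 1416158_at the difference was 0.29 ± 0.29. The probe sets of this gene therefore did not give a common direction. The remaining 3 had means of 4.27 to 4.68. Of these, 1444229_at read 4.22, 3.97 and 4.13 on the WNT4 arrays, all below the Cre arrays (4.28, 4.43 and 4.43) and the GFP arrays (4.34, 4.24 and 4.40). Its WNT4 minus Cre difference of -0.28 ± 0.10 had a limma adjusted p of 0.773 and is the lower one counted above.

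The androgen enzymes of theca and Leydig cells were dim, with a range over the 9 arrays of 0.65 for Cyp17a1 and 0.56 for Hsd17b3. Cyp17a1, the enzyme that turns progestins into androgens and defines theca cells, read 5.86, 5.25 and 5.40 on the WNT4 arrays, 5.72, 5.39 and 5.37 on the Cre arrays and 5.46, 5.75 and 5.20 on the GFP arrays. No array reached 6. WNT4 differed from GFP by 0.03 ± 0.19 (95% interval -0.41 to 0.47) and Cre from GFP by 0.02 ± 0.19 (limma adjusted p = 0.965 and 0.9999). Hsd17b3, known in the testis as the enzyme that completes testosterone synthesis, read 5.49, 5.76 and 5.67 on the WNT4 arrays, 5.62, 5.65 and 5.85 on the Cre arrays and 6.05, 5.80 and 5.58 on the GFP arrays. Its highest array was GFP 1 and its lowest WNT4 1, the array that was highest for 6 of the 9 genes. WNT4 differed from GFP by -0.17 ± 0.14 and Cre from GFP by -0.10 ± 0.14 (limma adjusted p = 0.634 and 0.9999).

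**Figure D3:**
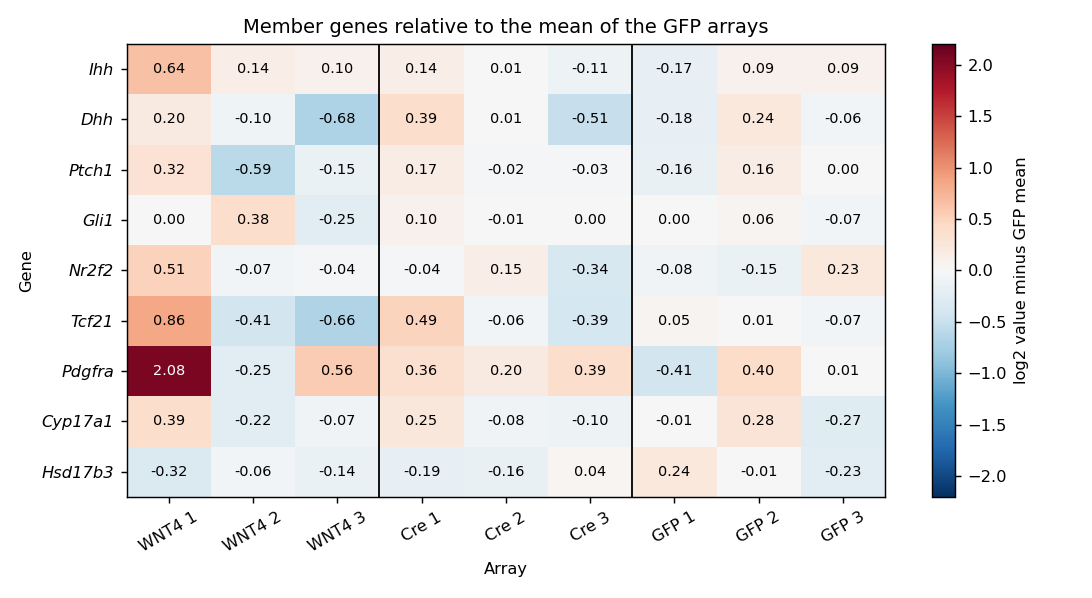
Log2 value of each of the 9 genes (rows) minus its mean over the GFP arrays, on each array (columns, grouped as WNT4, Cre and GFP); red is above and blue below the GFP mean. WNT4 1 is highest for Ihh, Ptch1, Nr2f2, Tcf21, Pdgfra and Cyp17a1, and WNT4 3 and Cre 3 are the lowest arrays for Dhh.

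WNT4 1 was the highest of the 9 arrays for 6 of the 9 genes and for 8 of the 20 probe sets, and 20.1% of all probe sets were highest on that array. The WNT4 group had the largest SD of the 3 groups for 15 of the 20 probe sets, and for 42.5% of all probe sets. The median SD of the 20 probe sets was 0.26 in the WNT4 group, 0.13 in the Cre group and 0.14 in the GFP group, and over all probe sets the medians were 0.16, 0.13 and 0.14. Arrays of the groups did not overlap for 2 of 20 probe sets in WNT4 against GFP (background 14.8%). One of them, Ihh, was higher (background 9.28%) and the other, 1444229_at of Nr2f2, was lower (5.49%). In Cre against GFP 1 of 20 did not overlap and was lower, 1416160_at of Nr2f2 (background 6.02%, with 2.98% higher and 3.04% lower). In WNT4 against Cre 1 of 20 did not overlap and was lower, 1444229_at (background 8.23%, with 5.38% higher and 2.85% lower). The shares of probe sets without overlap were near the background.

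Over the 9 arrays the values of Dhh and Tcf21 had a Pearson correlation of 0.80, and of 0.87 over the 8 arrays without WNT4 1. Pdgfra and Ihh had 0.85, and 0.32 without WNT4 1, and Pdgfra and Nr2f2 had 0.60 over all arrays and -0.23 without it. These are descriptions of 9 arrays that share virus groups and, in part, the programmes named above. For Pdgfra and Tcf21, the genes with the largest SD over the arrays, the genes of most similar pattern were sought among 10556 genes with a mean of at least 6. For Pdgfra they were Rbm27 (r = 0.97 over 9 arrays, 0.87 without WNT4 1), Bmp2k (0.96), Ppig (0.96), Taf1d (0.96) and Ezhip (0.96). For Tcf21 they were Med25 (0.94, and 0.92 without WNT4 1), Mybpc3 (0.94), Fam81a (0.93), Fbxw16 (0.93) and Nap1l5 (0.93).

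Markers of stroma, fibroblasts and smooth muscle were read beside Pdgfra, Nr2f2 and Tcf21. In these cultures fewer cells of a type and less RNA per cell cannot be told apart. All 22 listed markers were measured, 10 of them dim, and 0 were called in WNT4 against GFP (4 at an unadjusted p under 0.05, 1 higher and 3 lower, beside 9.12% and 3.91% of all probe sets). The median difference was 0.02, with the sign turned to -0.16 without GFP 1 and -0.12 without WNT4 1. Their mean level lay between 6.54 and 6.92 on the WNT4 arrays, between 6.59 and 7.07 on the Cre arrays and between 6.58 and 7.22 on the GFP arrays. The median of the list on WNT4 1 was -0.09 relative to the GFP mean. On that array 4 of the 22 lay more than 1 above the GFP mean and 6 more than 1 below it. Dcn, the matrix proteoglycan decorin, read 9.50, 6.51 and 6.45 on the WNT4 arrays, 7.10, 6.64 and 6.41 on the Cre arrays and 6.57, 6.64 and 6.64 on the GFP arrays. Lum, lumican, read 7.33, 4.68 and 4.65 on the WNT4 arrays and between 4.65 and 4.91 on the other groups. Thy1, a surface protein of fibroblasts, read 6.40 on WNT4 1 and 4.88 to 5.83 elsewhere, and Col1a2, a fibrillar collagen chain, read 9.70, 8.27 and 9.70 on the WNT4 arrays against 7.72, 8.83 and 9.08 on the GFP arrays. Those below were Igfbp5, Ogn and Fbln5, described in the next paragraph, and the contractile genes Acta2, Tagln and Actg2. Acta2, smooth muscle actin, read 10.81 on WNT4 1 and 11.06 to 12.87 elsewhere, and Tagln, transgelin, 8.53 and 8.66 to 11.15. The part of this array's stromal genes in its Pdgfra value was not tested.

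**Figure D4:**
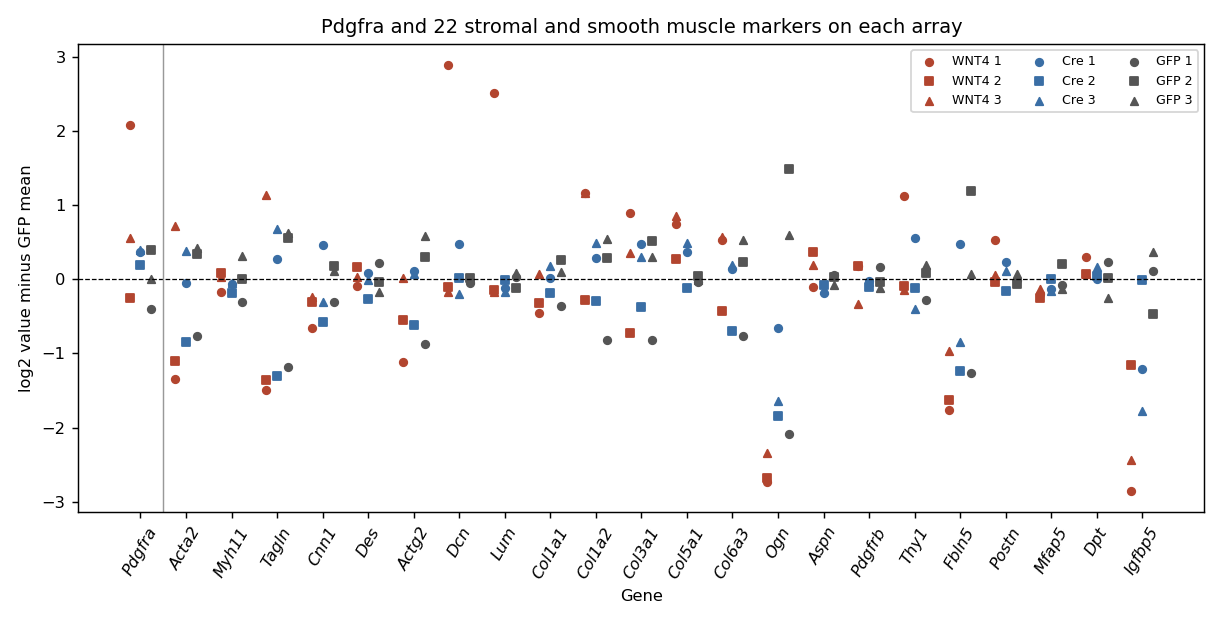
Log2 value minus the GFP mean (vertical axis) of Pdgfra and of 22 markers of stroma and smooth muscle (horizontal axis) on each array; colour gives the group and the marker shape the replicate (circle 1, square 2, triangle 3). WNT4 1 (red circles) stands 2.08 above the GFP mean for Pdgfra and is the highest array for Dcn and Lum, but is the lowest for Acta2 and Tagln.

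Other genes of that list had the lowest unadjusted p-values in WNT4 against GFP. Igfbp5, a binding protein of insulin-like growth factors, read 8.46, 10.15 and 8.88 on the WNT4 arrays, 10.10, 11.29 and 9.54 on the Cre arrays and 11.42, 10.84 and 11.67 on the GFP arrays. All WNT4 arrays lay below all GFP arrays (background 5.49%), and the difference was -2.15 ± 0.52 (limma adjusted p = 0.190). Ogn, the proteoglycan osteoglycin, differed by -2.58 ± 0.77 with GFP values of 5.39, 8.96 and 8.07, so its GFP arrays were themselves far apart. Col5a1, a collagen chain, differed by 0.62 ± 0.19 and Fbln5, an elastic fibre protein, by -1.45 ± 0.62 (limma adjusted p = 0.248 and 0.368). The list was written with earlier results of these data known.

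The rest of the hedgehog pathway was read from 19 of 20 listed genes, 6 of them dim. In WNT4 against GFP 3 were higher and 16 lower, and 0 were called (background 0.0155%). Of all probe sets 49.6% were higher, and of those not dim 69.2%. An unadjusted p under 0.05 was passed by 2, both lower (background 3.91% lower). The median difference was -0.10, beside -0.002 for all probe sets. In Cre against GFP 6 were higher and 13 lower with 0 called and 0 at an unadjusted p under 0.05 (background 2.23%, median -0.02). In WNT4 against Cre 6 were higher and 13 lower with 0 called (median -0.10), and 1 was lower at that threshold (background 1.17%). Of all probe sets 44.7% were higher in Cre against GFP and 56.8% in WNT4 against Cre. The WNT4 against GFP median was -0.17 after quantile normalization, -0.15 without WNT4 2, -0.15 without GFP 1 and -0.06 without WNT4 3, and the Cre against GFP median was 0.01 after quantile normalization, with the sign turned. Boc, a coreceptor that helps ligands reach PTCH1, read 6.51, 7.26 and 6.91 on the WNT4 arrays, 7.39, 7.26 and 7.26 on the Cre arrays and 7.32, 7.67 and 7.32 on the GFP arrays. All WNT4 arrays lay below all GFP arrays, with a difference of -0.54 ± 0.18 (limma adjusted p = 0.281). Gli2, the main activating GLI factor, read 7.14, 6.93 and 7.03 on the WNT4 arrays against 7.31, 7.27 and 7.37 on the GFP arrays, a difference of -0.28 ± 0.10 (limma adjusted p = 0.312). Here too the groups did not overlap, and 5.49% of all probe sets lay lower without overlap in WNT4 against GFP.

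Other genes of the pathway were not called either, and a shared direction of the pathway was not tested. Shh, sonic hedgehog, differed in WNT4 against GFP by -0.43 ± 0.21 and Smo, which passes the signal on once PTCH1 releases it, by -0.20 ± 0.11 (limma adjusted p = 0.424 and 0.494). Gli3, which mostly acts as the repressor of the family, read 6.95, 5.92 and 6.96 on the WNT4 arrays, 7.10, 6.35 and 6.89 on the Cre arrays and 5.85, 6.28 and 6.28 on the GFP arrays. All Cre arrays were above all GFP arrays (background 2.98%), by 0.64 ± 0.30 in the means (limma adjusted p = 0.9999). Gpr161, a receptor that restrains the pathway, differed in Cre against GFP by -0.31 ± 0.21, Gli2 by -0.14 ± 0.10 and Cdon, a coreceptor related to Boc, by 0.20 ± 0.16.

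**Figure D5:**
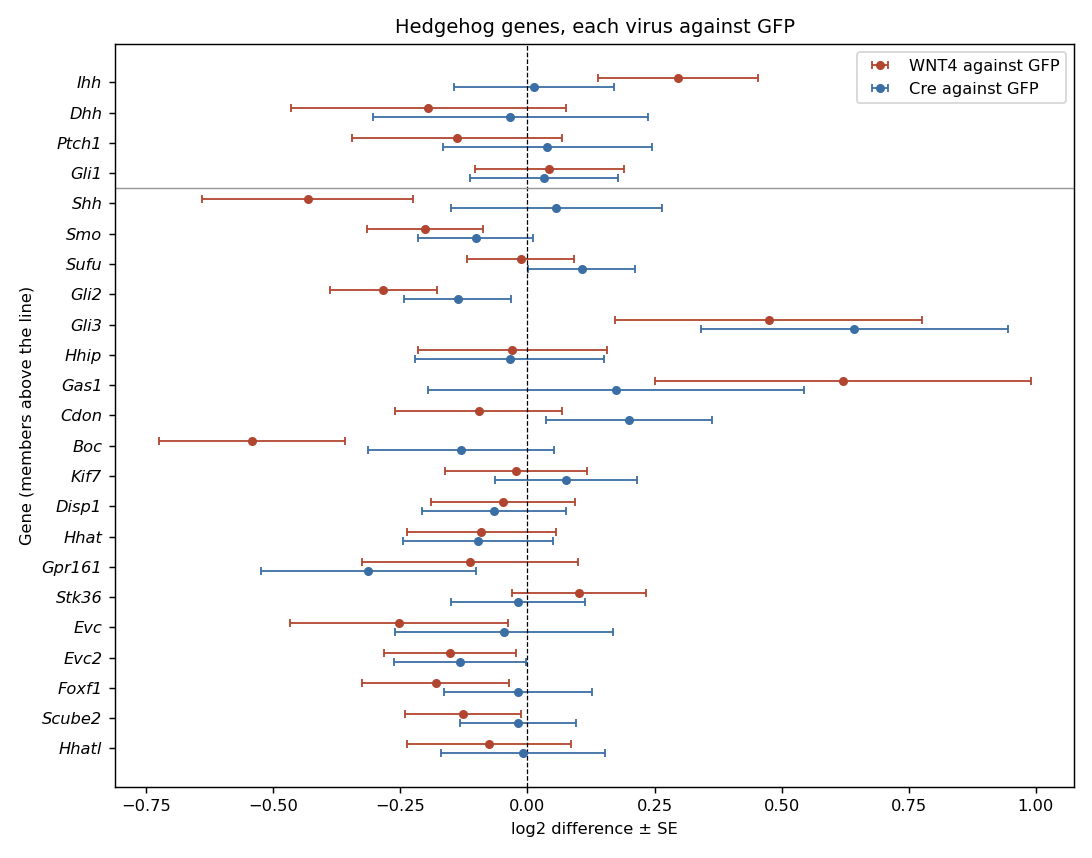
Log2 differences ± SE (horizontal axis) of 4 hedgehog genes described above and of 19 further genes of the pathway (vertical axis), for WNT4 against GFP (red) and Cre against GFP (blue). Most WNT4 differences lie left of 0, 16 of the 19, with Boc at -0.54 the lowest, and none passed the test adjusted over all probe sets. Of all probe sets 49.6% were higher in WNT4 against GFP.

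Of 9 further genes of steroid synthesis 0 were called in each comparison. In WNT4 against GFP 8 of the 9 were higher, 6 at an unadjusted p under 0.05, with a median of 0.46. Over all probe sets 9.12% were higher at that threshold. None of the 9 is dim. In a separate fit of the 18658 probe sets that are not, 69.2% were higher, 3131 of them at that threshold, with a median of 0.16. The lower gene was Hsd17b1, a granulosa enzyme of oestrogen synthesis that also stands on the granulosa list. Scarb1, the receptor for cholesterol in high-density lipoprotein, differed by 1.10 ± 0.24, Star, which carries cholesterol into mitochondria, by 2.05 ± 0.50, Fdx1, the electron donor of mitochondrial steroid enzymes, by 0.82 ± 0.21 and Nr5a1, the factor that drives steroid enzymes, by 0.38 ± 0.11 (limma adjusted p = 0.178, 0.192, 0.203 and 0.242). Cyp17a1 differed by 0.03 on the same arrays. The list median was 0.21 after quantile normalization, 0.80 without GFP 1 and 0.62 without WNT4 1, and 7 of its 9 genes were highest on WNT4 1, the array with the highest unfolded protein response. In Cre against GFP 7 of the 9 were higher with 0 at an unadjusted p under 0.05 and a median of 0.18, and Akr1c18, which degrades progesterone, differed by 1.03 ± 0.49.

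Signals that reach theca and stromal cells were measured as well. All 4 ligands of the PDGF receptors were above the dim line and 0 were called. Pdgfd read 10.86, 10.46 and 10.66 on the WNT4 arrays against 10.17, 10.42 and 10.20 on the GFP arrays, a difference of 0.40 ± 0.12 (limma adjusted p = 0.253). Its groups did not overlap, as for 9.28% of all probe sets in that direction. Pdgfa, whose homodimer binds PDGFRA only, averaged 8.71 ± 0.18 on the Cre arrays and 8.17 ± 0.35 on the GFP arrays (SD, n = 3), a difference of 0.54 ± 0.18 (SE, limma adjusted p = 0.9999). Pdgfc differed in WNT4 against GFP by 0.45 ± 0.29.

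Of 15 further transcription and growth factors of theca and neighbouring cells 0 were called, and 1 was higher and 1 lower at an unadjusted p under 0.05 in WNT4 against GFP (beside 9.12% and 3.91% of all probe sets), with a median of 0.13, and of 0.01 without WNT4 1. Igf1, a growth factor made by granulosa cells that raises theca androgen output, had the lowest p. It read 9.22, 9.20 and 10.01 on the WNT4 arrays, 11.45, 10.53 and 10.69 on the Cre arrays and 10.75, 11.66 and 11.57 on the GFP arrays. Its WNT4 arrays lay below every other array, with a WNT4 minus GFP difference of -1.85 ± 0.33 (limma adjusted p = 0.170). Of all probe sets 5.49% lay without overlap below GFP and 2.85% below Cre. Gata6, a factor of steroid-making cells, differed by 0.37 ± 0.16, Nr2f1, the close relative of Nr2f2, by 0.39 ± 0.21 and Hgf, hepatocyte growth factor, by -0.13 ± 0.09. Rxfp2, the receptor of INSL3, was dim on every array (mean 4.52). Bmp4, a theca factor, read 8.77 on Cre 1 and 5.99 to 7.23 elsewhere. Its Cre minus GFP difference was 0.87 ± 0.47 (limma adjusted p = 0.9999).

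Marker lists of other cells gave 0 calls in each comparison. Their median differences in WNT4 against GFP were 0.53 for 10 oocyte genes, -0.06 for 10 leukocyte genes, 0.05 for 8 endothelial genes, 0.02 for 8 surface epithelium genes and -0.11 for 13 granulosa genes. The oocyte median was 0.07 without WNT4 1 and 0.90 without GFP 2, and the granulosa median was -0.37 after quantile normalization and -0.22 without WNT4 1. In Cre against GFP they were 0.40, 0.09, -0.11, 0.05 and -0.15 in the same order. Oocyte genes lay 1.62, 0.10 and -0.03 from the GFP mean on the WNT4 arrays and 0.94, 0.51 and -0.22 on the Cre arrays. Of the 13 granulosa genes 5 were higher and 8 lower in WNT4 against GFP. At an unadjusted p under 0.05, 0 were higher and 3 lower (beside 9.12% and 3.91% of all probe sets). Bmpr1b, a BMP receptor, differed by -1.56 ± 0.29, Esr2 by -1.25 ± 0.36 and Foxl2, which keeps granulosa identity, by -0.32 ± 0.11 (limma adjusted p = 0.171, 0.236 and 0.292).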

How the data were processed

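RNA from cultured granulosa cells was hybridised to 9 arrays in 3 groups of 3, grouped and numbered from the sample titles. The deposited values are log2 values made by the authors with RMA, per the submitters' processing notes (version not given there); that they are log2 was read from their range, 3.46 to 15.3. No scans were used. Of 45101 probe sets, 64 Affymetrix controls were left out. Symbols came from the platform annotation, where 34945 tested probe sets had 1 symbol, 932 several and 9160 none, and were updated by Entrez ID through RefSeq (34741 matched, GRCm38.p6, names only), giving 18193 genes. Promoter sequences are from RefSeq, GRCm38.p6.

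A linear model without covariates was fitted to all 9 arrays and 45037 probe sets with limma 3.58.1 (lmFit, eBayes; R 4.3.3), two-sided, Benjamini-Hochberg adjusted in each comparison and called under 0.05; the procedure was tested on simulated data. An exact permutation test of 3 arrays against 3 cannot go below p = 0.1. Precision is limited by the 3 arrays per group. The rule for genes named was every member probe set, up to 4 genes of lowest p per list and comparison, and 5 genes most like each of the 2 most variable members. Dcn, Lum, Thy1, Col1a2, Acta2, Tagln, Actg2, Hsd17b1 and Rxfp2 lie outside this rule and were chosen after their values were seen. Members and all lists were chosen with earlier results of these data known. List genes without a probe set under a single symbol are not analysed here.

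To check for pairing, each array was set against its group mean. Arrays with the same number had correlated deviations of 0.21, 0.24 and 0.77 between WNT4 and Cre, each above 0.1. The numbers were therefore taken to pair these groups, from the data and not the labels. WNT4 1 correlated more with Cre 2 (0.32) and WNT4 2 more with Cre 1 (0.28), so the pairing of numbers 1 and 2 is weak. The main fit leaves the pairing out, and the replicate block, an alternative fit, takes it in.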

Additional observations from a re-analysis of the deposited data

How the results depend on the processing

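Neither the calls nor the medians of the 9 genes moved by more than the spread between replicates under any of 19 alternatives: the replicate number as a block, fits of the compared groups only, 3 other scalings (quantile, array median, 75th percentile), a filter on dim probe sets (which leaves 4 genes), an intensity trend, array weights, probe sets averaged per gene, each array left out in turn, and a fit without Cre 3 and WNT4 3 chosen after seeing the data. Called member probe sets stayed at 0 in each comparison, and the smallest limma adjusted p of a member gene was 0.158 (Pdgfra, WNT4 against GFP without WNT4 2, difference 1.32). Member medians ranged from -0.12 to 0.19 in WNT4 against GFP, from -0.06 to 0.08 in Cre against GFP and from -0.16 to 0.16 in WNT4 against Cre. With the replicate block 0 were called and the medians were 0.03, 0.02 and 0.01, as without it. Same-numbered arrays correlated at -0.08, 0.01 and 0.35 between WNT4 and GFP and at -0.04, -0.31 and 0.31 between Cre and GFP. In these 2 comparisons, unlike WNT4 against Cre, the numbers were not taken as pairs. Of 498 member gene differences 66 took another sign, none of them called. Of 432 list medians 30 moved by more than the spread between replicates. Over all probe sets the 7 calls of WNT4 against GFP ranged from 0 to 748 between fits with an array left out, the 748 without WNT4 2. They numbered 10 with the block, 3 after quantile normalization, 17 at the 75th percentile, 15 without dim probe sets, 1 with the trend, 2 with averaged probe sets, and 0 both with the compared groups only and without Cre 3 and WNT4 3. The median of all probe sets moved to -0.15 in WNT4 against GFP after centring on the 75th percentile.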

Other observations

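The 2 probe sets annotated to both Jak3 and Insl3 belong in no comparison above. The brighter one read 6.84, 7.02 and 7.03 on the WNT4 arrays, 6.85, 6.81 and 7.11 on the Cre arrays and 7.02, 7.20 and 6.92 on the GFP arrays. The dimmer one read 4.18, 4.49 and 4.43 on the WNT4 arrays, 4.43, 4.43 and 4.55 on the Cre arrays and 4.42, 4.43 and 4.39 on the GFP arrays. The groups overlapped for both.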
